A study of Homo sapiens with 4 samples.

Results

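The LIM-domain proteins of focal adhesions and stress fibres were followed at the RNA level through a set of 10 genes: CSRP1, CSRP2, ZYX, LPP, TRIP6, TES, FHL1, FHL2, FHL3 and PDLIM7. They were matched by symbol to the Ensembl identifiers of a gene count table. All 10 had 1 entry each among the 60721 genes of that table, and all 10 were among the 16137 genes with enough counts to be tested. CSRP1 was chosen by its log2 fold change, a fall in the comparison described here, so its values are given as a description with no p value. The other 9 were assembled around it as LIM-domain genes of the same structures.

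The cells were Hs578T, an established line from a human breast carcinoma. Every culture received GFP. In the control group (SCR) it came with a non-targeting RNA, and in the other group (siTLN1) with siRNA against TLN1, the gene of talin-1, which ties integrins to actin. The RNA was given at 1.6 µM and polyadenylated RNA was taken after 48 h, with 2 libraries a group, described by the submitters as biological replicates. No sequence of the siRNA is given in the sources used here, and the data come from 1 cell line.

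Total counts per library lay between 31854322 and 46353297. The TLN1 transcript had 868 and 874 CPM (read counts relative to library size, scaled by the trimmed-mean method TMM) in the SCR libraries and 51.9 and 44.8 CPM in the siTLN1 libraries, so the target was reduced where the labels say. The submitters call the source epithelial, a label not tested here, since the marker lists held luminal but no basal epithelial genes. Over all 4 libraries together, the luminal epithelial genes EPCAM, KRT19, ESR1, ELF3 and CDH1 had 16, 9, 17, 5 and 100 counts. KRT18, KRT8 and GATA3 of the same list had 17844, 2618 and 1744 counts, and the mesenchymal gene VIM had 584873. The summed level of 8 luminal epithelial markers was 131 to 163 CPM in SCR and 143 to 156 CPM in siTLN1, mostly from KRT18. The summed level of 8 mesenchymal markers was 54120 to 56020 CPM in SCR and 52350 to 60220 CPM in siTLN1. By fitted change 6 of the 8 were lower and 2 higher. Of them 2 were called lower (adjusted p under 0.05 by edgeR), beside 3.77% of all tested genes. These were CDH2 (N-cadherin, log2 fold change −0.89) and SPARC (−0.48). Of 8 muscle markers, summed at 142 to 149 CPM in SCR and 121 to 126 CPM in siTLN1, MYOG had no counts and DES 9, and the sum came mostly from SMTN and LMOD1. Of the blood markers, CD3E, HBB and LYZ had no counts, and the list summed to 1.32 to 1.54 CPM in SCR and 1.10 to 1.13 CPM in siTLN1. In bulk RNA, fewer cells of a kind and less RNA per cell cannot be told apart.

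A LIM domain is a pair of zinc fingers that binds other proteins rather than DNA. Proteins built from such domains gather on focal adhesions and stress fibres, some of them only when the filament is under tension, and several also enter the nucleus and act on transcription. CSRP1 and CSRP2 (the cysteine-rich proteins CRP1 and CRP2) bind alpha-actinin and bundle actin. Zyxin, LPP and TRIP6 form one family that brings Ena/VASP proteins to sites of actin assembly and repair, and testin (TES) binds zyxin. The FHL proteins consist almost wholly of LIM domains and serve as transcriptional cofactors, while PDLIM7 (Enigma) pairs a PDZ domain with LIM domains. Several of these genes are known targets of SRF, the transcription factor whose MRTF cofactors respond to free actin.

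In the siTLN1 libraries CSRP1 stood at 64.3% of its SCR mean, while 0 of the other 9 genes passed the threshold of the test, an adjusted p under 0.05, which 6.07% of all tested genes passed. CSRP2, its close relative, and LPP were higher in both siTLN1 libraries than in both SCR libraries without passing. FHL1, PDLIM7, TRIP6 and FHL2 were lower in both siTLN1 libraries, also without passing. ZYX, TES and FHL3 had libraries that overlapped between the groups. The summed CPM of the set was 1949 and 2036 in SCR and 1844 and 1847 in siTLN1, and the share of that sum held by CSRP1 was 13.6% in each SCR library, against 9.12% and 9.75% in the siTLN1 libraries.

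**Figure D1:**
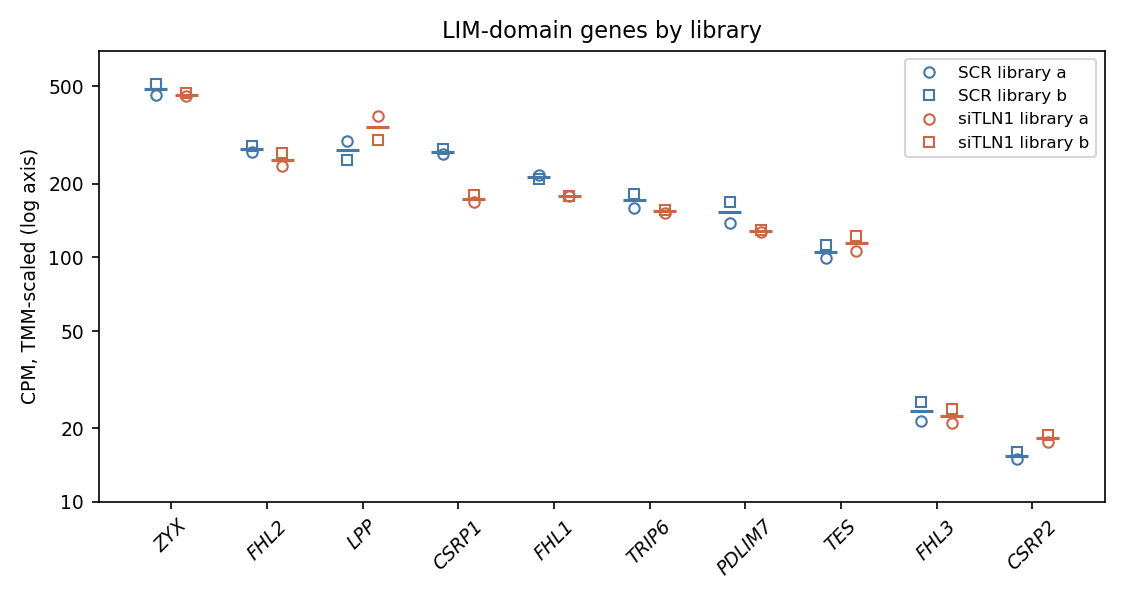
CPM of each of the 10 genes (vertical log axis) by gene, ordered by SCR mean. Circles are the a libraries, squares the b libraries, blue SCR, orange siTLN1, and short bars the group means. CSRP1 shows the widest gap between groups, with SCR libraries at 264 and 277 CPM and siTLN1 libraries at 168 and 180 CPM.

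The 4 columns of the count table carry a number that recurs in both groups and appears in no sample label. The libraries with one number are called a here, and those with the other b. CSRP1 (ENSG00000159176.14; GRCh38, chromosome 1, 201483530 to 201509456, minus strand) had 264 CPM in SCR library a and 277 CPM in SCR library b. It had 168 CPM in siTLN1 library a and 180 CPM in siTLN1 library b. The deposited log2 CPM of CSRP1 was 8.046 and 8.116 in SCR replicates 1 and 2, and 7.394 and 7.493 in siTLN1 replicates 1 and 2. By value, library a is therefore replicate 1 and library b replicate 2 in each group. The siTLN1 libraries were both below the SCR libraries. CSRP1 was chosen for its fall in these same libraries, so this separation and the values below describe and do not test. The summed muscle markers were also lower in both siTLN1 libraries, and their part in the value of CSRP1 was not tested. The group values were 271 ± 9.19 CPM (SD, n = 2) for SCR and 174 ± 8.43 CPM (SD, n = 2) for siTLN1, with a fitted log2 fold change of −0.64 (standard error 0.093). The SDs and p values here measure only the spread between these samples. Over 8 alternative fits of all 4 libraries the log2 fold change of CSRP1 ran from −0.65 to −0.62, and over 4 fits that each left out 1 library from −0.68 to −0.59.

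CSRP1 was also the only gene of the set whose chosen coding transcript held the 7-base word GACAACA in its 3′ UTR. This word was not chosen independently, since an earlier analysis of these libraries had found lower fold changes among genes that carry it. It is shown because it is a sequence feature by which CSRP1 differs from the rest of the set. FHL1 held it once in coding sequence. The sites are printed 5′ to 3′ on the transcript strand, with the word in capitals, from GENCODE 29 transcripts on GRCh38.
CSRP1 (3′ UTR, chr1:201483609-201483637, minus strand): gcaactgaaagGACAACActatctggagc
FHL1 (coding, chrX:136207098-136207126, plus strand): ttgtggccaagGACAACAagatcctgtgc
The CSRP1 word begins at base 1090 of a 3′ UTR of 1186 bases. It is present in 5 of 19 annotated CSRP1 transcripts, at the same place in the genome each time. Most of these 5 are retained intron forms without coding sequence, and the others hold it in the 3′ UTR. The word is also in 28 of 33 annotated FHL1 transcripts, mostly in coding sequence. The chosen transcripts of the other 8 genes lacked it, although 1 of 7 CSRP2 transcripts, a retained intron form, and 1 of 22 LPP transcripts, in its 3′ UTR, held a copy. The 3′ UTRs searched ranged from 126 bases for CSRP2 to 16195 bases for LPP. Across the tested protein-coding genes other than TLN1, 16.7% of the 944 with the word in the 3′ UTR were called lower, against 6.20% of the 1871 with it in coding sequence only and 2.89% of the 10044 with it in neither. CSRP1 is itself among the 944 and among those called lower, and 3′ UTR lengths were not matched, so these shares describe. The part of the word in the fall of CSRP1 was not tested.

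CSRP2 (ENSG00000175183.10; chromosome 12, 76858709 to 76879023, minus strand) was the scarcest transcript of the set. It measured 14.94 and 16.02 CPM in SCR libraries a and b, and 17.55 and 18.85 CPM in siTLN1 libraries a and b. The groups did not overlap, with siTLN1 the higher, at 118% of the SCR mean. The log2 fold change was 0.23 (standard error 0.11, 95% interval −0.0023 to 0.47), with a p of 0.258 from the quasi-likelihood test of edgeR after Benjamini-Hochberg adjustment over all tested genes. That test is the one behind every adjusted p value below, with a threshold of 0.05. So the 2 cysteine-rich protein genes had fitted changes of opposite sign, and the difference between them was not tested because CSRP1 had been chosen for its fall.

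Among the zyxin family, ZYX (ENSG00000159840.16; chromosome 7, 143381295 to 143391111, plus strand) was the most abundant gene of the set. Its libraries read 463 and 510 CPM in SCR and 457 and 470 CPM in siTLN1, so the groups overlapped. Its log2 fold change was −0.070 (95% interval −0.27 to 0.13, adjusted p 0.765), and it was 0.0036 without SCR library b. TRIP6 (ENSG00000087077.14; chromosome 7, 100867387 to 100873454, plus strand), which binds Ena/VASP and Cas family proteins, had 160 and 182 CPM in SCR and 152 and 157 CPM in siTLN1. The siTLN1 libraries were both the lower by a small distance, and the log2 fold change of −0.15 (95% interval −0.35 to 0.055) had an adjusted p of 0.432.

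LPP (ENSG00000145012.13; chromosome 3, 188153284 to 188890671, plus strand), the lipoma-preferred partner, had a fitted change of opposite sign to ZYX and TRIP6. It had 300 CPM in SCR library a and 251 CPM in SCR library b, against 380 and 302 CPM in siTLN1 libraries a and b. Both siTLN1 libraries were the higher, but library a exceeded library b in each group, more widely in siTLN1. SCR library a and siTLN1 library b nearly met. The log2 fold change was 0.31 (standard error 0.12, 95% interval 0.043 to 0.57), with an adjusted p of 0.176. It was 0.44 without SCR library a (adjusted p 0.0275 by edgeR) and 0.47 without siTLN1 library b (adjusted p 0.0292 by edgeR), and 0.18 and 0.13 without SCR library b and siTLN1 library a (adjusted p 0.579 and 0.765 by edgeR). LPP has 25535 exon bases, the most of the set, and the trend of each library with gene length put genes of its length at 0.056 and −0.078 on the log2 scale in SCR libraries a and b and at 0.098 and −0.072 in siTLN1 libraries a and b. The measured deviations of LPP from its own mean were −0.021 and −0.28 in SCR and 0.32 and −0.014 in siTLN1, so that in both groups library a was the higher in trend and in measurement. With each library's trend on gene length removed, an alternative chosen after seeing the data, its log2 fold change was 0.28 (adjusted p 0.0565 by edgeR).

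TES (ENSG00000135269.18; chromosome 7, 116210506 to 116258783, plus strand) had 99.5 and 112 CPM in the SCR libraries and 107 and 122 CPM in the siTLN1 libraries. In each group library b was the higher, and the groups overlapped. The log2 fold change of TES was 0.11 (95% interval −0.098 to 0.33, adjusted p 0.592). Exons of genes on the opposite strand share 5.37% of its exon bases, the largest such share in the set, and the counting used no strand option, so reads there cannot be told apart by strand. The shares were 2.51% for ZYX, 1.84% for FHL2, 1.67% for CSRP1 and 0.901% for LPP, and TRIP6 shares 2.82% with a gene on its own strand.

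Of the FHL genes, FHL1 (ENSG00000022267.19; chromosome X, 136146702 to 136211359, plus strand) had the clearest separation between groups. It measured 218 and 210 CPM in the SCR libraries and 178 CPM in each siTLN1 library. Its replicates lay close together, and the siTLN1 mean was 83.3% of the SCR mean. The log2 fold change was −0.26 (standard error 0.090, 95% interval −0.45 to −0.072), with an unadjusted p of 0.00986 and an adjusted p of 0.100, short of the threshold.

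FHL2 (ENSG00000115641.19; chromosome 2, 105357712 to 105438513, minus strand), a cofactor of several transcription factors, had 269 and 285 CPM in SCR and 236 and 267 CPM in siTLN1. The higher siTLN1 library came close to the lower SCR library, and the log2 fold change of −0.14 (95% interval −0.35 to 0.063) had an adjusted p of 0.461. FHL3 (ENSG00000183386.10; chromosome 1, 37996770 to 38005606, minus strand) was the scarcest after CSRP2 by CPM, with 21.4 and 25.7 CPM in SCR and 21.0 and 24.1 CPM in siTLN1. Its groups overlapped, its log2 fold change was −0.065 (95% interval −0.31 to 0.18, adjusted p 0.830), and the sign turned when SCR library b (0.075) or siTLN1 library a (0.031) was left out.

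PDLIM7 (ENSG00000196923.14; chromosome 5, 177483394 to 177497606, minus strand) had 139 and 168 CPM in the SCR libraries and 128 and 129 CPM in the siTLN1 libraries. Both siTLN1 libraries were the lower, but SCR library b stood well above SCR library a. The log2 fold change of −0.26 (standard error 0.10, 95% interval −0.47 to −0.042) had an adjusted p of 0.160. Without SCR library a it was −0.39 (adjusted p 0.0372 by edgeR), and without SCR library b −0.11 (adjusted p 0.754 by edgeR).

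**Figure D2:**
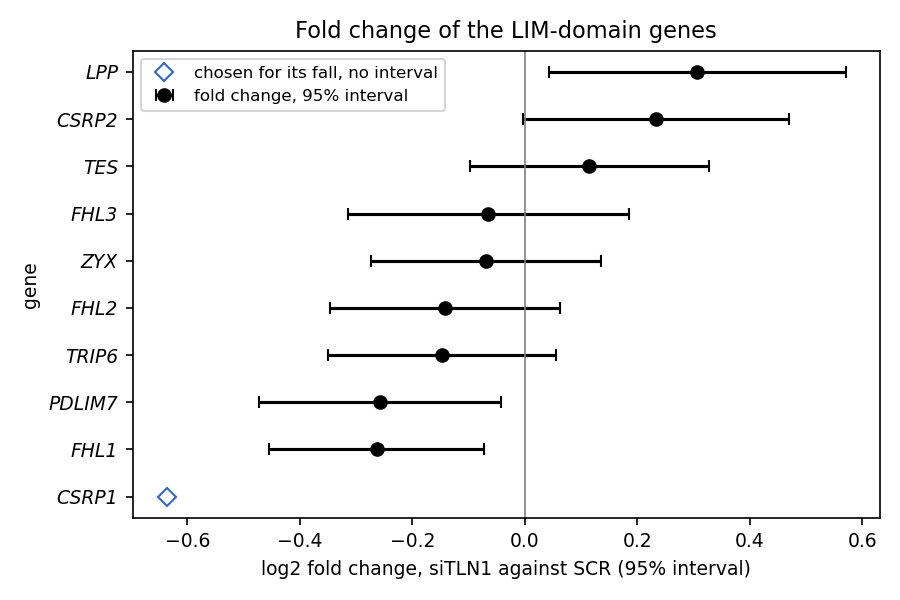
Log2 fold change of siTLN1 against SCR (horizontal axis) for each of the 10 genes, with 95% intervals from edgeR's quasi-likelihood fit of 2 libraries a group. CSRP1 (open diamond, −0.64) was chosen for its fall and is drawn with no interval, and the other 9 genes lie between −0.26 and 0.31.

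Over all 16137 tested genes 6.07% were called in either direction, 3.77% as lower and 2.30% as higher. Of the 9 genes other than CSRP1, edgeR called 0. At an unadjusted p under 0.05 it held 3 of the 9 (LPP, FHL1 and PDLIM7), against 19.8% of all tested genes. DESeq2 and limma-trend, both without a replicate block, each called 0 of the 9. With such a block limma-trend called more, as given below under the processing. The median log2 fold change of the 9 was −0.070, with 6 lower and 3 higher, beside a median of 0.0033 over all genes. Libraries did not overlap between groups for 6 of the 9 genes (4 lower and 2 higher), and for 48.4% of all tested genes, 24.6% lower and 23.9% higher.

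The levels of the genes were compared per length, as CPM per kilobase of exon. In the SCR libraries the order of the means was ZYX (149), TRIP6 (67.0), FHL2 (41.8), FHL1 (36.5), PDLIM7 (34.8), CSRP1 (26.25), TES (24.8), FHL3 (11.8), LPP (10.8) and CSRP2 (2.65), all in CPM per kilobase. Zyxin stood above 98.9% of tested genes on this scale and CSRP2 above 46.8%. Neighbours in this order whose SCR libraries overlapped were FHL1 and PDLIM7 (35.7 to 37.2 against 31.5 to 38.1), CSRP1 and TES (25.6 to 26.9 against 23.3 to 26.2), and FHL3 and LPP (10.7 to 12.8 against 9.81 to 11.8). In the siTLN1 libraries CSRP1, at 16.3 and 17.45 CPM per kilobase, stood below TES, at 25.0 and 28.6. All annotated exon bases of a gene enter the length, so a gene whose exon bases far exceed 1 transcript appears lower on this scale. The chosen coding transcript had 2129 bases for CSRP1 (10318 exon bases) and 910 for CSRP2 (5842). It had 2782 for TES (4267) and 18277 for LPP (25535). The order, and the place of CSRP1 below TES, therefore depend on the length used, and levels by transcript length were not computed.

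By Euclidean distance over the 4 libraries in log2 CPM centred on each gene's mean, the 5 genes nearest to CSRP1 among 10475 candidates at a mean of 5 CPM or more were SHISA4 (0.0223), ITPK1 (0.0320), SULF1 (0.0438), CMIP (0.0441) and CYTL1 (0.0466). SULF1 is an extracellular sulfatase of heparan sulfate and ITPK1 an inositol phosphate kinase. All 5 were picked for this pattern, so their values describe and do not test. SHISA4 read 26.5 and 27.6 CPM in SCR and 17.0 and 18.3 CPM in siTLN1, in near proportion to CSRP1. It also lies on chromosome 1 (201888680 to 201892306), with 379223 bases between the 2 genes. The median log2 fold change of the 13 tested genes within 500 kb of CSRP1 was 0.029. The word GACAACA was in the 3′ UTR of CMIP (1 copy) and in the coding sequences of CMIP (2) and SULF1 (1). No annotated transcript of SHISA4, ITPK1 or CYTL1 held it.

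**Figure D3:**
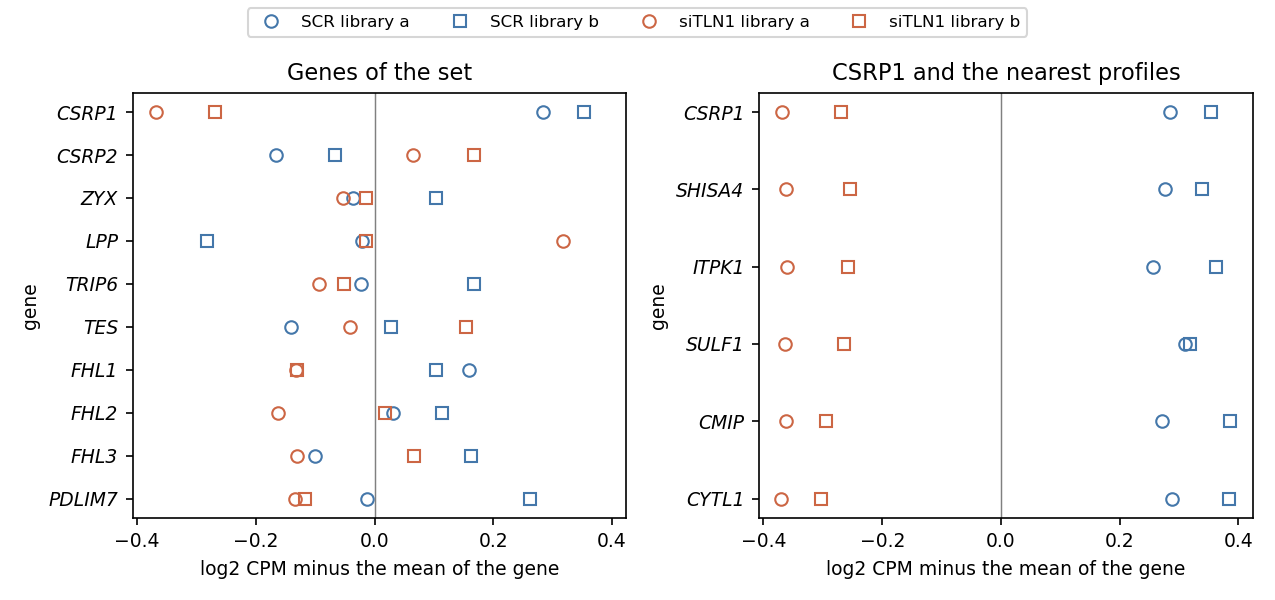
Deviation of each library from the gene's mean in log2 CPM (horizontal axis), for the 10 genes (left) and for CSRP1 with the 5 nearest profiles (right). Circles are the a libraries, squares the b libraries, blue SCR and orange siTLN1. CSRP1 runs from −0.37 in siTLN1 library a to 0.35 in SCR library b, and LPP has the widest distance between libraries a and b within siTLN1.

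Other LIM-domain genes of actin and adhesions were taken from a list of 40, of which 34 were tested. None of the 34 passed edgeR's threshold, beside 6.07% of all tested genes, and 3 had an unadjusted p under 0.05 (LIMK2, PRICKLE2 and LMO7). DESeq2 and limma-trend, both without a replicate block, called 0. The 3 are 8.82% of the list, beside 19.8% of all tested genes, and without SCR library a edgeR called 1, PRICKLE2. Their median log2 fold change was −0.083, with 22 lower and 12 higher, in a range from −0.26 to 0.27. MICAL2, an oxidase that disassembles actin filaments and the most abundant gene of this list, had 817 and 714 CPM in SCR and 802 and 771 CPM in siTLN1. Its groups overlapped, its log2 fold change was 0.039 (adjusted p 0.890 by edgeR), and it was −0.053 without SCR library b.

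The list of proteins that these genes bind or lie beside on filaments and adhesions held 19 genes, all tested, with a median log2 fold change of −0.014 and 10 lower. Of them 1 was called, beside 6.07% of all tested genes. It was PTK2 (ENSG00000169398.19), the focal adhesion kinase FAK, which was higher in siTLN1. PTK2 had 171 and 163 CPM in SCR and 207 and 211 CPM in siTLN1, with both siTLN1 libraries above both SCR libraries. Its log2 fold change of 0.32 (standard error 0.091) had an adjusted p of 0.0433, just inside the threshold. The call was lost without a filter on low counts (adjusted p 0.0684 by edgeR) and in each fit that left out 1 library, with adjusted p values of 0.0836 and 0.229 without SCR libraries a and b and 0.221 and 0.178 without siTLN1 libraries a and b by edgeR. Over all alternatives the adjusted p of PTK2 ran from 1.64e-05 to 0.229. The alpha-actinins ACTN1 and ACTN4, to which CSRP1 and zyxin bind, had log2 fold changes of −0.24 and −0.25 (adjusted p 0.180 and 0.177 by edgeR), and the Ena/VASP genes VASP, ENAH and EVL had −0.17, −0.23 and −0.043 (adjusted p 0.355, 0.177 and 0.881 by edgeR).

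The SRF and MRTF list held 32 genes, all tested, of which CSRP1, ZYX, FHL2 and PDLIM7 also belong to the set. Among the other 28, edgeR called 1, ACTG1 (ENSG00000184009.12), the gene of gamma-actin. It was lower in siTLN1, at 1421 and 1652 CPM against 3753 and 4035 CPM in SCR, with a log2 fold change of −1.34 (adjusted p 3.28e-06). Reads shared with near-identical actin genes make its level uncertain. ACTG1 is 1 of 28, beside 6.07% of all tested genes called. A gene besides ACTG1 passed by DESeq2 (VCL), with the length trend removed (VCL), with scaling by totals (EGR1), and without SCR library a (JUNB) or b (EGR1). The median of the 28 was −0.011, with 15 lower and 13 higher. SRF itself measured 131 and 139 CPM in SCR and 129 and 140 CPM in siTLN1, and MRTFA and MRTFB had log2 fold changes of 0.024 and 0.083 (adjusted p 0.926 and 0.840 by edgeR).

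**Figure D4:**
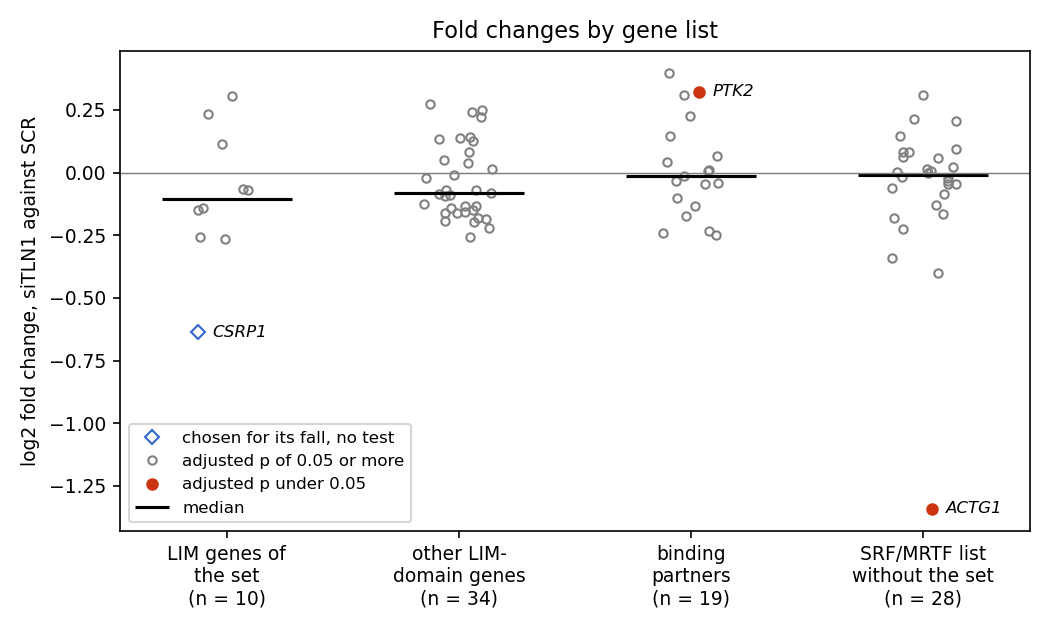
Log2 fold change of siTLN1 against SCR (vertical axis) for the 10 genes of the set, 34 other LIM-domain genes, 19 partners and 28 SRF/MRTF genes outside the set. Each circle is a gene, filled where the adjusted p was under 0.05, the open diamond is CSRP1, shown with no test, and black bars are list medians. The filled genes are PTK2 and ACTG1, and apart from CSRP1 the rest lie between EGR1 at −0.40 and RASSF2 at 0.40.

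Because SRF acts through the CArG box, promoter windows of RefSeq (build GRCh38.p14, 250 bases before to 50 after each annotated start) were searched for it on both strands, the motif being its own reverse complement. All 10 genes were found there by symbol, with 34 windows. A match occurred in at least 1 window of 4 genes, FHL2, FHL1, LPP and TES, and in 187 (1.65%) of 11365 tested genes with a window. Genes with many starts have more windows, and FHL1 has 12. By window, 17.6% of the 34 held a CArG box, beside 1.19% of the windows of tested genes. The matches are shown since they mark which genes of the set carry the motif, with the box in capitals, 5′ to 3′ on the strand of the gene.
FHL2 (chr2:105438595-105438624, minus strand): aatctggagaCCTTAAAAGGcacgtgggag
FHL2 (chr2:105399091-105399120, minus strand): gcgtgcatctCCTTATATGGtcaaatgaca
FHL1 (chrX:136196911-136196940, plus strand): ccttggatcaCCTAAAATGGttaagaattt
LPP (chr3:188212519-188212548, plus strand): gcctgcttctCCATATTTGGaaatgtttac
TES (chr7:116222703-116222730, plus strand): acacaagaCCAAATTAGGaatggttgcc
Of these 4 genes, FHL2 and FHL1 had fitted changes below 0 and LPP and TES above 0, and none passed the threshold. The 3 windows of CSRP1 held no match in these bases. The word GGAATG, bound by TEAD factors, which work with YAP, was searched on both strands as well. It was in a window of 6 of the 10 genes (CSRP1, LPP, TRIP6, TES, FHL1 and FHL2) and of 15.3% of tested genes. By window, GGAATG was in 20.6% of the 34, beside 11.7% of the windows of tested genes. In TES, 1 of its matches overlaps the CArG box printed above.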

How the data were processed

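RNA from 4 Hs578T libraries (2 SCR, 2 siTLN1) was analysed, with groups from the titles and, for the count columns, from the group name in the column name. The authors deposited raw counts per gene made with featureCounts (Subread 2.0.0) on read pairs against GENCODE 33, without setting strand or multi-mapping options, per the file headers. The submitters' processing notes name STAR 2.7.9a, edgeR 3.34.1 and GRCh38. Exon length is another column of the deposited table, in bases. The authors also deposited log2 CPM values for 16137 genes. When checked, 100% of them, sorted within groups, equalled TMM-scaled log2 CPM from edgeR within 1e-06.

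Genes were kept by filterByExpr (minimum count 10, minimum total 15). The comparison used edgeR 4.0.16 in R 4.3.3: TMM scaling, estimateDisp, glmQLFit (robust, legacy off), glmQLFTest, and Benjamini-Hochberg adjustment over all 16137 tested genes. Standard errors and 95% intervals follow from that fit, and SDs are over 2 libraries. Within groups, libraries differed beyond counting noise (chi-square per degree of freedom 13.3 and 18.3 over all tested genes). For abundant genes the number of libraries, rather than depth, therefore limits precision. Scarce genes had wider standard errors, as 0.35 for CDH1 against 0.090 for FHL1, and depth may limit precision there too. With 2 libraries a group, the smallest p of an exact permutation test is 0.333. The procedure was tested on simulated data. Where 200 genes were lowered or raised 1.5-fold, it recovered 173 of them with 15 false calls, and with no gene changed it called 0. Smaller changes were not simulated. The genes of the set other than CSRP1 had smaller fitted changes, from −0.26 to 0.31 on the log2 scale. Those of the other LIM-domain genes ran from −0.26 to 0.27. How often the procedure recovers changes of such a size was therefore not tested. The simulated libraries were drawn independently, with no effect shared by the a or by the b libraries.

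The set of genes, the lists and the word GACAACA were chosen with earlier results of these data known. Named genes were the 10 of the set, TLN1, every list gene past the threshold (or the most abundant where none passed) and the 5 nearest profiles to CSRP1, with a prior count of 2. Further genes named (SRF, MRTFA, MRTFB, VASP, ENAH, EVL, ACTN1, ACTN4, LIMK2, PRICKLE2, LMO7, EGR1, JUNB, VCL, RASSF2, the markers and neighbouring genes) were chosen after their values were seen. Genes on more than 1 list count under each. The alternatives tried were DESeq2's RLE scaling in edgeR, scaling by totals, testing unfiltered genes, a mean of at least 10 counts, DESeq2 1.42.0, limma-trend (limma 3.58.1) on the deposited log2 CPM, a replicate block, each library left out, and gene-length trend removal (loess span 0.3). Sequences came from GENCODE 29 (the coding transcript with the longest coding sequence) and RefSeq, read with Python 3.11.15, pandas 2.3.3 and numpy 2.4.6. Figures were drawn with matplotlib 3.10.9. Protein sequences were not used here.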

Additional observations from a re-analysis of the deposited data

How the results depend on the processing

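TLN1 stayed called as lower in all 12 alternatives, from −4.28 to −4.07. Of 108 values of the 9 genes other than CSRP1, 98 kept direction and side, 7 came to pass the threshold and 3 changed sign: ZYX without SCR library b (0.0036; −0.14 at the other end of the range over left-out libraries), and FHL3 without siTLN1 library a (0.031) or SCR library b (0.075; −0.19 at the other end). MICAL2 changed sign without SCR library b (−0.053; 0.14 at the other end). The cause was not tested. The 980 genes changed in all became 324 to 1100 when 1 library was left out, the lowest without siTLN1 library a (1.95% of those tested), and the genes of the set past the threshold numbered 1 to 3, the highest without SCR library a. These counts include CSRP1, whose passing is no evidence since it was chosen for its fall. Of the other 9 genes, LPP and PDLIM7 passed without SCR library a and LPP without siTLN1 library b. These fits assume that the lone library of a group varies like the others. With a replicate block on the deposited log2 CPM, limma-trend changed 3645 genes (22.6%) and 5 genes of the set, CSRP1 again among them. The 4 of the other 9 were CSRP2 (adjusted p 0.0420 by limma), LPP (5.18e-05), FHL1 (4.94e-04) and PDLIM7 (0.00152). No label states that equal numbers share a preparation, and 2 pairs cannot show it, though the differences between deposited replicates 1 and 2 correlated between the groups at 0.19 across all tested genes and at 0.54 across the 10487 with a mean of at least 5 CPM. Under the block 8 of the 34 other LIM-domain genes, 7 of the 19 partners and 8 of the 28 SRF/MRTF genes outside the set passed. Among the 19 partners DESeq2 and the fit without the length trend called 2, PTK2 and VCL, and each fit without 1 library 0. Without a filter on low counts 663 genes changed among 32708 tested.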

Other observations

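The neighbourhood of the LIM-domain genes was looked at for other called genes. Within 500 kb on either side of the 10 genes, 117 tested neighbours were found, of which 9 (7.69%) passed edgeR's threshold, beside 6.07% of all tested genes. Those described here were chosen after their values were seen.

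DBN1, which encodes the actin-binding protein drebrin, lies 8992 bases from PDLIM7 and was higher in siTLN1. It had 167 and 203 CPM in SCR and 280 and 291 CPM in siTLN1, a log2 fold change of 0.63 (standard error 0.10, adjusted p 0.00167 by edgeR), while PDLIM7 was lower without passing. CAV1, the gene of caveolin-1, is 266217 bases from TES and fell by 0.39 on the log2 scale (adjusted p 0.0270 by edgeR), from 1526 and 1471 CPM to 1145 and 1138 CPM.

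LPP-AS2, a noncoding gene on the opposite strand that overlaps the start of LPP, fell by 0.70 on the log2 scale (adjusted p 0.0283 by edgeR), from 4.09 and 4.05 CPM to 2.33 and 2.66 CPM. LPP itself was higher in both siTLN1 libraries. Without strand in the counting, reads in the stretch that the 2 genes share cannot be assigned to one of them.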
